A study of Homo sapiens with 16 samples.

Results

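The vacuolar H+-ATPase (V-ATPase) is built from subunits that are each encoded by 1 or several genes, and 10 genes encode the alternative isoforms of its subunits a, d, B and C. These are ATP6V0A1, ATP6V0A2, TCIRG1 and ATP6V0A4 for subunit a, ATP6V0D1 and ATP6V0D2 for subunit d, ATP6V1B1 and ATP6V1B2 for subunit B, and ATP6V1C1 and ATP6V1C2 for subunit C. All 10 were found by symbol among 28278 genes in 16 RNA-seq libraries of SKMEL28 and A375, which are established human melanoma lines. The set was selected on a measured value: ATP6V0A4 stood out among the genes that were higher in both SKMEL28 double knockout clones than in their parent line. The values of those comparisons are therefore given as descriptions, with no p.

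The SKMEL28 groups were unedited wild type (1 library, numbered replicate 4), a MITF knockout labelled MITFKO (3 libraries), and clones 3 and 13 of a double knockout, DKO (3 libraries each), made by CRISPR-Cas9 targeting of TFE3 within the MITFKO line named D2. From A375 came 3 wild-type libraries and 3 labelled TFE3KO, also made with CRISPR-Cas9. The medium was RPMI for SKMEL28 and DMEM for A375, both with serum, so cell line and medium cannot be told apart. Each edited group is 1 line or clone and its replicates are separate cultures of it, so p-values measure the spread between cultures and not between independently edited clones. The design compares the MITFKO line with wild type, each clone of the double knockout with MITFKO, TFE3KO with wild type in A375, and the lines with each other. Every comparison with the SKMEL28 wild type rests on its 1 library, which has no spread of its own.

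The V-ATPase pumps protons into lysosomes, endosomes, melanosomes and other compartments, and in some specialised cells across the plasma membrane. Its V1 sector hydrolyses ATP in the cytosol, where subunit B forms part of the catalytic head and subunit C joins the head to a stator. Its V0 sector conducts protons through the membrane, where subunit a holds the channels by which protons enter and leave and directs the pump to a compartment, and subunit d couples the central stalk to the rotating ring. Isoforms a1, a2, d1, B2 and C1 occur in most tissues. Isoform a3 (TCIRG1) and d2 are best known from osteoclasts, a4 and B1 from acid-secreting intercalated cells of the kidney, and C2 from kidney, lung and other epithelia. MITF, TFE3 and TFEB are related transcription factors that bind E-box motifs, many of them in promoters of lysosomal genes.

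Promoter sequences from RefSeq (GRCh38.p14) covered 7 of the 10 genes with 9 start sites, each window reaching from 250 bases before to 50 bases after the start. CACGTG, the longer TCACGTGA that contains it, CATGTG and TGACTCA were searched on both strands. A single window, that of ATP6V0D1 on chromosome 16, held any of them: it had TCACGTGA from position -60, and CACGTG within it from -59. Among all 35116 promoter windows of this length, CACGTG was in 7.26%, TCACGTGA in 0.98%, CATGTG in 11.1% and TGACTCA in 4.95%. No match was found in the ATP6V0A4 windows on chromosome 7 or in those of ATP6V0A1, ATP6V0A2, TCIRG1, ATP6V1B1 and ATP6V1C2. The 250 bases before the start are shown for ATP6V0D1 (chr16:67481158-67481407, minus strand) because it holds the motif, in capitals, and for both starts of ATP6V0A4 (chr7:138798197-138798446 and chr7:138773936-138774185, minus strand) because its level in the clones chose the set. A match describes these letters and does not show a bound site.
ATP6V0D1: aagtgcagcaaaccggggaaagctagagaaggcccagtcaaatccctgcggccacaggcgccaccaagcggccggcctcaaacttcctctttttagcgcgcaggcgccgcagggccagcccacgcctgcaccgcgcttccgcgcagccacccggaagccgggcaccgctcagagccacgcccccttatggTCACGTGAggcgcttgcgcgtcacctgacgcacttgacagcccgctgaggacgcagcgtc
ATP6V0A4 start 1: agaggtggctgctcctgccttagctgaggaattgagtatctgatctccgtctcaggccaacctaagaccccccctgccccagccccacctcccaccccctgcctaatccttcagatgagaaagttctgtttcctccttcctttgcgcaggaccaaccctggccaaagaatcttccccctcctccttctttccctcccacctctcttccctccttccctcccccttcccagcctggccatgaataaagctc
ATP6V0A4 start 2: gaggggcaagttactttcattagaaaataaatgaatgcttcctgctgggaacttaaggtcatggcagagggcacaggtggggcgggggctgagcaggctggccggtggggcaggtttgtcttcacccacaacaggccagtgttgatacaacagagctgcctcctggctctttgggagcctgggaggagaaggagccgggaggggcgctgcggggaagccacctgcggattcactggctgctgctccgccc

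Library totals ran from 17320855 to 31269126 counts. Levels are counts relative to library size (CPM) after trimmed-mean (TMM) scaling over all 16 libraries, given as mean ± SD, and levels of different genes are compared only per kilobase (kb) of each gene's longest GENCODE transcript. Adjusted p comes from the quasi-likelihood test of edgeR, with the Benjamini-Hochberg method applied over all genes tested. Genes under 0.05 were called, and rose and fell are used only for those. Replicate 2 of DKO clone 13 stood apart from its group, with a mean chi-square per gene of 21.9 and 23.3 against its fellows, where all other replicate pairs had 3.2 to 7.14. In clone 3, the pairs with replicate 2 had 6.44 and 7.14, and the remaining pair had 3.39. TFE3 was at 75.4 ± 3.79 CPM in MITFKO, 9.63 ± 1.85 in DKO clone 3 and 47.0 ± 2.98 in DKO clone 13, beside 45.0 CPM in the SKMEL28 wild type, so its level did not check the knockout label of clone 13. In A375 TFE3 went from 119.5 ± 5.67 in wild type to 11.6 ± 0.685 CPM in TFE3KO. MITF transcript was at 512.1 ± 30.8 CPM in MITFKO and 538.7 CPM in wild type, which likewise did not check the MITFKO label. Of the melanocyte markers, SOX10 was at 489.1 CPM or more in every library, whereas MLANA was at 738.8 CPM in the SKMEL28 wild type and at most 4.15 CPM in every other library. MLANA does not stand for the list of 8, which summed to 14200 CPM in the SKMEL28 wild type and 5560 to 5830 in MITFKO. Its sum was 6050 to 6880 CPM in clone 3 and 6930 to 8590 in clone 13. In A375 it was 507 to 535 CPM in wild type and 866 to 949 in TFE3KO. In bulk RNA, fewer cells with a transcript and less of it per cell cannot be told apart.

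Per kb of the longest transcript, the order of the genes differed between the lines. In the SKMEL28 wild type, ATP6V1C1 (52.9 CPM per kb) and ATP6V1B2 (52.5) were highest, followed by ATP6V0D1 (31.0), TCIRG1 (25.2), ATP6V0A1 (14.2), ATP6V0D2 (7.78) and ATP6V0A2 (6.18). ATP6V1C2, ATP6V0A4 and ATP6V1B1 were at 0.397, 0.222 and 0.106 CPM per kb there. In A375 wild type, ATP6V0D1 led with 21.9 ± 1.61 CPM per kb, ahead of TCIRG1 (17.7 ± 1.17) and ATP6V1C1 (15.3 ± 1.05). ATP6V0A1 (9.75 ± 1.25) and ATP6V1B2 (9.34 ± 0.249) came next, and their libraries overlapped. ATP6V0A2 (6.09 ± 0.738) and ATP6V0A4 (1.62 ± 0.234) followed. The libraries of ATP6V1C2, ATP6V1B1 and ATP6V0D2, all under 0.5 CPM per kb on average, overlapped with their neighbours in the order. The order depends on the length taken: in A375 wild type ATP6V1B2 led with median transcript lengths (91.6 CPM per kb, against 84.3 for ATP6V0D1), and ATP6V1C1 led with coding lengths (74.9, against 63.0 for ATP6V0D1). In the SKMEL28 wild type ATP6V1B2 led with median lengths (514.6, against 199.0 for ATP6V1C1) and ATP6V1C1 with coding lengths (259.2, against 236.3 for ATP6V1B2).

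**Figure D1:**
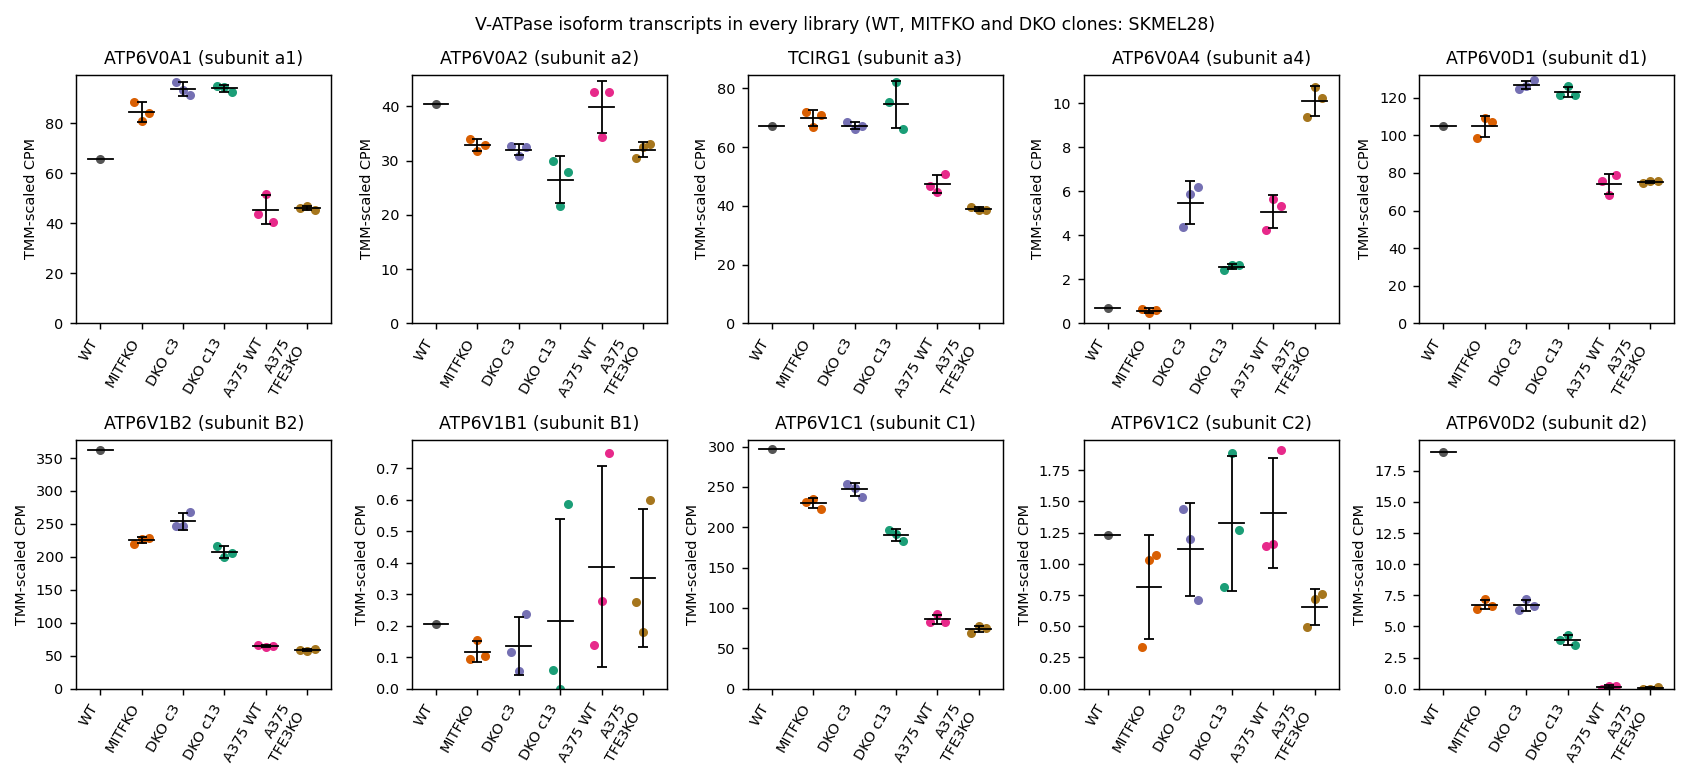
TMM-scaled CPM of the 10 isoform genes (vertical axes, linear, starting at 0) in each of 16 libraries by group; each point is a library, horizontal bars are means and error bars are SD (n = 3, none for the lone SKMEL28 wild type). ATP6V0A4 sits under 1 CPM in SKMEL28 wild type and MITFKO and above 9 CPM in all A375 TFE3KO libraries, and ATP6V0D2 is at 19.0 CPM in the SKMEL28 wild type and under 0.3 CPM in every A375 library.

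ATP6V0A4 encodes a4, the subunit a isoform of renal intercalated cells. It was at 0.697 CPM in the SKMEL28 wild type and at 0.667, 0.465 and 0.614 CPM in MITFKO, from 17 counts and from 14, 9 and 12 counts. DKO clone 3 had 4.38, 5.87 and 6.20 CPM and DKO clone 13 had 2.43, 2.64 and 2.64 CPM. A375 wild type had 4.25, 5.66 and 5.32 CPM, and A375 TFE3KO had 9.36, 10.7 and 10.2 CPM. The TFE3-edited libraries were thus the highest within each cell line, with no overlap with the unedited or MITFKO libraries of that line. The group means stood at 9.42 times the MITFKO mean in clone 3 and 4.41 times in clone 13, the differences by which the set was chosen.

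The A375 libraries are not part of the comparisons that chose it. ATP6V0A4 rose in A375 TFE3KO against wild type by 0.99 ± 0.16 (SE) on the log2 scale, 1.99-fold, with an adjusted p of 5.8e-07. Between the clones, whose libraries chose it, the log2 difference of clone 13 against clone 3 was -1.09 ± 0.27, given without a test, and all 3 libraries of clone 13 lay below those of clone 3. TFE3 itself was higher in clone 13 than in clone 3, at 47.0 against 9.63 CPM. MITFKO, whose libraries also chose it, gave a log2 difference of -0.25 ± 0.51 against wild type, likewise without a test. A375 wild type was higher than the SKMEL28 wild type by 2.85 ± 0.39 on the log2 scale (adjusted p = 1.3e-07).

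Other markers of intercalated cells did not accompany a4 in both lines. FOXI1, the transcription factor that defines these cells, and ATP6V1G3 had 0 counts in all 16 libraries, which allows up to 3 counts in each. The summed level of the 7 listed intercalated-cell markers was 2.67 CPM in the SKMEL28 wild type, 5.01 to 6.57 in MITFKO, 10.2 to 10.5 in clone 3 and 8.4 to 10.2 in clone 13. Nearly all of it was SLC26A4, an anion exchanger, at 5.80 ± 0.863 CPM in MITFKO and 10.2 ± 0.353 in clone 3. In A375 the sum was 0.649 to 0.794 CPM in wild type and 0.491 to 1.25 in TFE3KO, so the groups overlapped while ATP6V0A4 did not. The part of these markers in the SKMEL28 values was not tested. TMEM213, which overlaps ATP6V0A4 in the RefSeq annotation, had 0 counts in every library.

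By a fixed rule, the 5 genes with the profile most like that of ATP6V0A4 over the 16 libraries were NDUFAB1 (Pearson r = 0.958), EIF3F (0.956), STT3B (0.941), CYP27C1 (0.936) and STIM2 (0.932), among 16248 genes. Their Spearman coefficients were 0.906, 0.9, 0.815, 0.821 and 0.918. The points share cell line, clone and medium, so these coefficients only describe the 16 profiles.

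The other isoforms of subunit a were more even. ATP6V0A1 (a1, abundant in neurons) was at 65.9 CPM in the SKMEL28 wild type and at 88.6, 80.9 and 84.1 CPM in MITFKO. It rose in MITFKO by 0.36 ± 0.09 on the log2 scale (adjusted p = 0.00189). Both DKO clones lay higher again, at 93.7 ± 2.74 CPM in clone 3 and 94.0 ± 1.33 in clone 13. In A375 it was at 43.6, 51.9 and 40.6 CPM in wild type and 46.2, 47.0 and 45.5 in TFE3KO, values that overlapped (log2 difference 0.03 ± 0.07, adjusted p = 0.770).

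ATP6V0A2 encodes a2, an isoform of the Golgi and early endosomes. It was at 42.6, 34.3 and 42.6 CPM in A375 wild type and at 30.4, 32.5 and 33.0 in TFE3KO, with every TFE3KO library below every wild-type one. It fell there by 0.32 ± 0.08 on the log2 scale (adjusted p = 0.000648). In SKMEL28 it was at 40.4 CPM in wild type, 32.8 ± 1.11 in MITFKO, 32.0 ± 1.05 in clone 3 and 26.5 ± 4.34 in clone 13, whose replicate 2 was lowest at 21.6. The MITFKO difference of -0.30 ± 0.14 was not called (adjusted p = 0.0849). The difference between clones, -0.28 ± 0.10, missed the threshold (adjusted p = 0.0550) and passed it when the filter on low counts was dropped (0.0431) or clone 13 replicate 1 was left out (0.0183). Without clone 13 replicate 2 it was -0.14 ± 0.10 (adjusted p = 0.297).

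TCIRG1 encodes a3, the isoform of lysosomes and of the osteoclast's bone-facing membrane. It was at 46.7, 44.8 and 50.9 CPM in A375 wild type and 39.6, 38.6 and 38.5 in TFE3KO, again without overlap. It fell by 0.28 ± 0.07 on the log2 scale (adjusted p = 0.000472). In SKMEL28 its levels were 67.4 CPM in wild type, 70.0 ± 2.67 in MITFKO, 67.3 ± 1.10 in clone 3 and 74.5 ± 7.97 in clone 13, and the MITFKO difference of 0.06 ± 0.11 was not called (adjusted p = 0.690). Its 3' neighbour CHKA overlaps it in the RefSeq annotation and had 702 to 2856 counts per library. The counting strand is not given in the sources used here, so some reads in the overlap could belong to either gene.

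As shares of the summed CPM per kb of the 4 subunit a genes, TCIRG1 was the largest in every group with the longest transcripts only. It then ran from 44.6% ± 0.999 in A375 TFE3KO to 55.0% in the SKMEL28 wild type. ATP6V0A1 held 31.0% in the SKMEL28 wild type, 36.7% ± 0.403 in MITFKO, 38.8% ± 0.780 in clone 3 and 38.2% ± 1.59 in clone 13. ATP6V0A4 made up 0.486% in the SKMEL28 wild type, 0.373% ± 0.053 in MITFKO, 3.37% ± 0.633 in clone 3 and 1.55% ± 0.129 in clone 13. In A375 it went from 4.60% ± 0.638 in wild type to 9.88% ± 0.595 in TFE3KO, while TCIRG1 went from 50.4% ± 2.49 to 44.6%. The rank of a3 and a1 depends on the length taken: with median transcript lengths ATP6V0A1 led in every group but the SKMEL28 wild type and A375 wild type, with 49.2% in MITFKO against 40.7% for TCIRG1. ATP6V0A1 led in the same groups with coding lengths (45.0% in MITFKO against 37.6%) and without length correction (45.0% against 37.3%). With median lengths the a4 share in A375 TFE3KO was 3.78%, and in A375 wild type 1.74%.

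**Figure D2:**
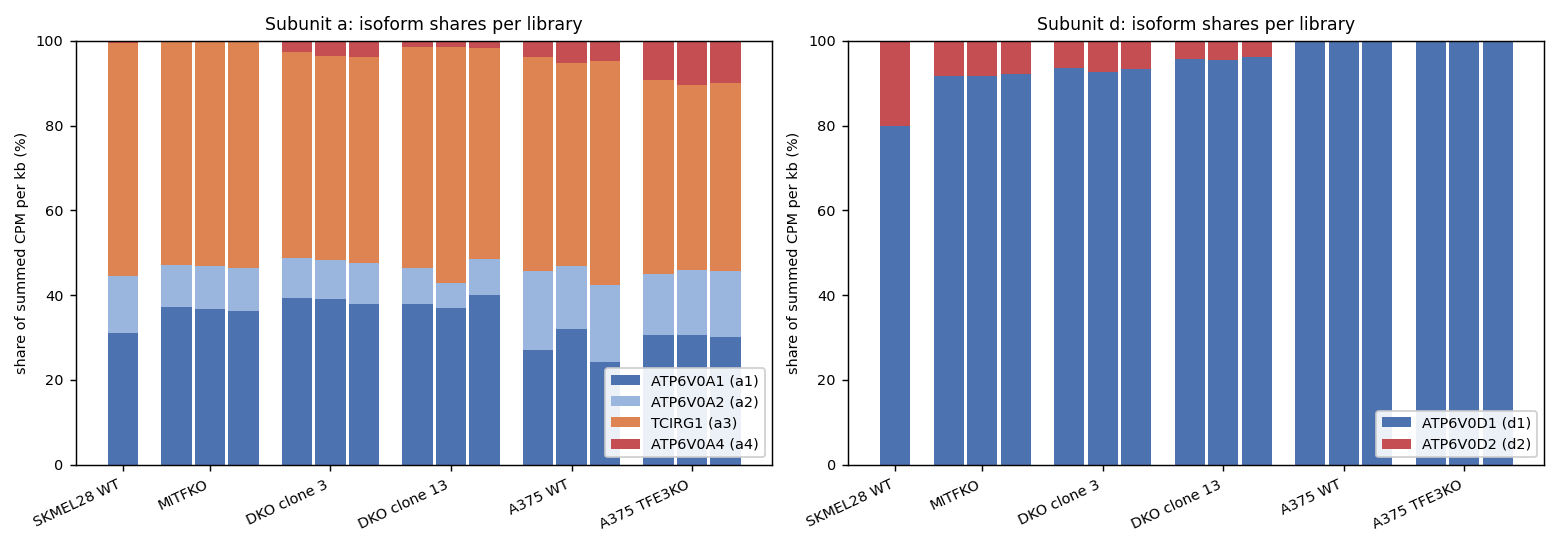
Share of each isoform in the summed CPM per kb of its subunit (vertical axes, percent, 0 to 100), 1 stacked bar per library, grouped by line and genotype. The a4 segment is thickest in A375 TFE3KO (mean 9.88%) and the d2 segment in the SKMEL28 wild type (20.1%).

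Subunit d showed the reverse pattern between lines. ATP6V0D2 (d2), which also takes part in osteoclast fusion, was at 19.0 CPM in the SKMEL28 wild type. MITFKO had 6.43, 7.19 and 6.65 CPM and clone 3 had 6.28, 7.18 and 6.62. Clone 13 had 3.88, 4.28 and 3.47 CPM. The wild-type library was the highest of all, MITFKO and clone 3 overlapped, and clone 13 lay below both. ATP6V0D2 fell in MITFKO by 1.49 ± 0.20 on the log2 scale (adjusted p = 2.47e-06), to 35.5% of wild type. It fell in clone 13 against clone 3 by 0.79 ± 0.18 (adjusted p = 0.00183).

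A375 had almost no ATP6V0D2 transcript. Its wild-type libraries held 0, 4 and 5 counts and its TFE3KO libraries 0, 0 and 2, so the gene was filtered out of the A375 test. The A375 wild-type mean, 0.140 ± 0.123 CPM, was 0.734% of the SKMEL28 wild type. No test is given, since the gene passed the filter over both lines through its SKMEL28 counts. Osteoclast markers were present in part: of 7 listed, 4 had counts in the SKMEL28 wild type, and their summed level was 191 CPM there, 233 to 259 in MITFKO, 171 to 180 in clone 3, 250 to 311 in clone 13 and 16.1 to 19.3 in A375. The 8 melanocyte markers summed to 14200 CPM in the SKMEL28 wild type, 5560 to 5830 in MITFKO, 6050 to 6880 in clone 3, 6930 to 8590 in clone 13 and at most 949 in A375. The part of either list in the ATP6V0D2 values was not tested.

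ATP6V0D1 (d1), the ubiquitous isoform and the holder of the TCACGTGA shown above, was at 105.0 CPM in the SKMEL28 wild type and at 98.6, 109.2 and 107.0 in MITFKO. These overlapped, with a log2 difference of 0.00 ± 0.08 (adjusted p = 0.998). Clone 3 had 124.6, 126.5 and 129.3 CPM and clone 13 had 121.7, 126.4 and 121.5, all above every MITFKO library. A375 had 75.6, 68.1 and 78.8 CPM in wild type and 74.9, 75.5 and 75.9 in TFE3KO, which overlapped (log2 difference 0.03 ± 0.06, adjusted p = 0.737). Within subunit d, the share of d2 per kb was 20.1% in the SKMEL28 wild type, 8.19% ± 0.231 in MITFKO, 6.82% ± 0.416 in clone 3, 4.17% ± 0.342 in clone 13 and 0.262% ± 0.227 in A375 wild type.

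Subunit B transcripts came almost wholly from ATP6V1B2, with B1 at 0.185% to 0.367% of the summed CPM per kb in the SKMEL28 groups and 2.08% ± 1.66 in A375 wild type. B2, part of the catalytic head, was at 362.3 CPM in the SKMEL28 wild type and at 220.2, 226.9 and 228.2 in MITFKO. It fell in MITFKO by 0.69 ± 0.08 on the log2 scale (adjusted p = 1.06e-07), to 62.1% of wild type. Clone 3 had 246.5, 246.9 and 268.5 CPM, all above MITFKO, and clone 13 had 216.6, 199.5 and 205.6, all below it. Clone 13 fell below clone 3 by 0.29 ± 0.06 on the log2 scale (adjusted p = 0.000422). A375 wild type had 66.0, 62.6 and 64.9 CPM, which was 17.8% of the SKMEL28 wild type (log2 difference -2.49 ± 0.07, adjusted p = 1.7e-24).

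In A375, ATP6V1B2 fell in TFE3KO, with 58.0, 57.2 and 60.4 CPM, by 0.14 ± 0.06 on the log2 scale (adjusted p = 0.0437). That call ended with DESeq2 (adjusted p = 0.0725), without the filter on low counts (0.0628), and without wild-type replicate 1 (0.140), wild-type replicate 3 (0.0895), TFE3KO replicate 1 (0.116) or TFE3KO replicate 2 (0.140). ATP6V1B1 (B1), the intercalated-cell partner of a4, had 0 to 16 counts per library, at most 0.747 CPM, and was not called in any comparison. Its antisense gene ATP6V1B1-AS1 had 44 to 287 counts, and with the strand unknown even these few reads are uncertain.

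Subunit C transcripts came mostly from ATP6V1C1, with C2 at 0.637% to 1.24% of the summed CPM per kb in the SKMEL28 groups, 2.90% ± 1.00 in A375 wild type and 1.57% ± 0.279 in TFE3KO. C1, which helps control the joining of V1 to V0, was at 297 CPM in the SKMEL28 wild type and at 231.8, 235.6 and 222.6 in MITFKO. It fell there by 0.37 ± 0.08 on the log2 scale (adjusted p = 0.000302). Clone 3 had 253.7, 249.1 and 238.1 CPM and clone 13 had 196.6, 192.1 and 182.8, a fall between clones of 0.38 ± 0.05 on the log2 scale (adjusted p = 2.23e-05). In A375 it was at 82.7, 92.6 and 82.0 CPM in wild type and 69.6, 77.2 and 75.0 in TFE3KO, without overlap. It fell in A375 TFE3KO by 0.22 ± 0.06 on the log2 scale (adjusted p = 0.00109), and A375 wild type stood at 28.9% of the SKMEL28 wild type (adjusted p = 7.4e-20).

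ATP6V1C2 (C2) had 7 to 41 counts per library. A375 wild type had 1.14, 1.16 and 1.91 CPM and TFE3KO had 0.491, 0.714 and 0.761, without overlap. It fell by 1.12 ± 0.45 on the log2 scale (adjusted p = 0.0369), a call that ended with DESeq2 (0.0664), without the filter on low counts (0.0547), and without wild-type replicate 3 (0.236), TFE3KO replicate 1 (0.156) or TFE3KO replicate 2 (0.0660). In SKMEL28 its groups overlapped, apart from the lone wild-type library at 1.23 CPM, which lay above MITFKO (0.334, 1.03 and 1.07). ATP6V1C2 overlaps PDIA6, with 5022 to 14044 counts per library, in the RefSeq annotation, so its few reads are uncertain.

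Read as a set, the 10 genes were called at rates to be set against those of all genes. In MITFKO against wild type, 1 of the 9 members other than ATP6V0A4 rose and 3 fell. Over all 14605 genes 25.2% rose and 23.4% fell. The median log2 difference over all 10 members, ATP6V0A4 included, was -0.33, against 0.01 over all genes. This comparison rests on a lone wild-type library, assumed to vary like the other SKMEL28 groups. Between the clones, none of the 9 members other than ATP6V0A4 rose and 3 fell in clone 13 against clone 3 (ATP6V0D2, ATP6V1B2 and ATP6V1C1), where 14.3% of all genes rose and 13.4% fell. The count of those that fell was also 3 without clone 13 replicate 2. It was 4 without the filter on low counts, with the replicate block or without clone 13 replicate 1. Without clone 13 replicate 3, 1 rose, TCIRG1, by 0.23 ± 0.08 (adjusted p = 0.0273), and 3 fell. With all libraries the median over all 10 was -0.16, against 0.00 over all genes. It includes ATP6V0A4, whose clone values chose the set, so it only describes the 10.

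In A375 TFE3KO against wild type, 8 of the 10 passed the filter on low counts, 1 rose (ATP6V0A4) and 5 fell (ATP6V0A2, TCIRG1, ATP6V1B2, ATP6V1C1 and ATP6V1C2), where 21.3% of 14012 genes rose and 22.0% fell. With DESeq2 or without the filter, 4 were called rather than 6. The A375 wild type against the SKMEL28 wild type gave 1 higher member, ATP6V0A4. Lower ones were ATP6V0A1, TCIRG1, ATP6V0D1, ATP6V1B2 and ATP6V1C1. Over all 16248 genes 34.1% were higher and 33.6% lower. This comparison also rests on the lone SKMEL28 wild-type library. Its p-values, here and above, take the spread from the other groups. ATP6V0D2 is not counted here, since it passed the filter through its SKMEL28 counts. ATP6V0A2 was at nearly the same level in both (log2 difference -0.02 ± 0.14, adjusted p = 0.909).

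The comparisons that the choice of genes used are given as counts and log2 differences, without p. The counts come from the same test on libraries that the choice used. They describe the members and are no support for a change in them. ATP6V0A4, whose values there chose the set, is left out of the counts. Of the 9 other members, clone 3 against MITFKO had 2 higher and none lower past the threshold. Over all genes 18.2% were higher and 17.6% lower. Clone 13 against MITFKO had 1 higher and 3 lower, beside 20.5% and 20.2%. Both share the MITFKO libraries. The counted members past the threshold in clone 3 were ATP6V0D1 and ATP6V1B2, both higher. In clone 13 they were ATP6V0D1, higher, and ATP6V0A2, ATP6V0D2 and ATP6V1C1, lower. ATP6V0A2 was no longer past it without clone 13 replicate 2, where its log2 difference was -0.18 ± 0.10, or without MITFKO replicate 1 or 3. ATP6V1B2 was no longer past it in clone 3 without MITFKO replicate 1, MITFKO replicate 2 or clone 3 replicate 3. ATP6V0D2 differed by -0.01 ± 0.17 on the log2 scale in clone 3 and by -0.80 ± 0.17 in clone 13, and ATP6V1C1 by 0.10 ± 0.05 and -0.27 ± 0.05.

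**Figure D3:**
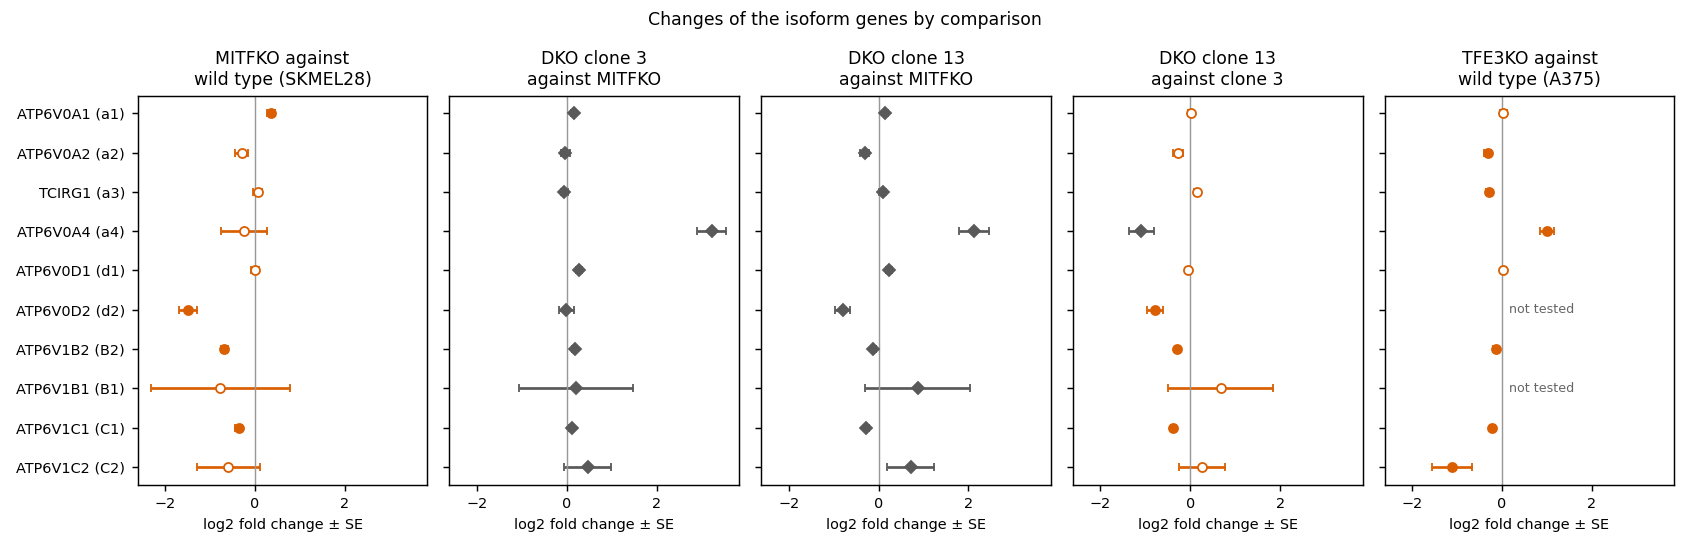
Log2 fold change ± SE (horizontal axes, shared) of the 10 isoform genes in 5 comparisons; filled orange circles are called at an adjusted p under 0.05, open ones are not, and grey diamonds mark values used in choosing the genes, which carry no test. ATP6V0A4 is the one gene to the right of 0 among those called in A375 (0.99), and ATP6V0D2 has the lowest value in MITFKO against wild type (-1.49). The open circle of ATP6V0A4 in MITFKO against wild type also rests on MITFKO libraries used in the choice and carries no test.

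The TFE3 effect was then compared between the lines, as the mean of both clones against MITFKO minus the effect in A375. The SKMEL28 side of this difference is the comparisons by which ATP6V0A4 chose the set. The test of the other members is therefore not independent of that choice. Its p-values are left out, and counts past the threshold only describe the members. Over all genes 16.5% had a higher value in SKMEL28 and 18.3% a lower one, and of the 9 members other than ATP6V0A4, 3 were higher and none lower. ATP6V0A4 itself stood at 1.68 ± 0.33 on the log2 scale and gets no test because its SKMEL28 values chose it. TCIRG1 differed by 0.30 ± 0.10 and ATP6V0D1 by 0.23 ± 0.08. ATP6V1C2 differed by 1.71 ± 0.66, from few counts. The 3 past the threshold fell to 1 without MITFKO replicate 1 and to 0 without A375 wild-type replicate 3. TCIRG1 was lost without A375 wild-type replicate 3. ATP6V0D1 was lost without that library, without A375 wild-type replicate 1 or without MITFKO replicate 1. ATP6V1B2 (0.17 ± 0.07) missed the threshold but passed it with median-of-ratios scaling and with DESeq2.

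The other V-ATPase subunits were taken as a list of 15 genes, of which 13 were tested; ATP6V1G2 and ATP6V1G3 had 0 counts in every library. In MITFKO against wild type 5 rose and 3 fell, where 25.2% of all genes rose and 23.4% fell. The largest changes were in ATP6V1E2 (a stator subunit isoform), which fell by 0.86 ± 0.22 on the log2 scale (adjusted p = 0.00221), and ATP6V0E1 (a small V0 subunit), which rose by 0.61 ± 0.08 (adjusted p = 2.96e-06). ATP6V0C, the proton-carrying ring subunit, rose by 0.54 ± 0.08 (adjusted p = 3.14e-06). ATP6V0E2 and ATP6AP1 (V0 and accessory) and ATP6V1E1 (V1) rose too, and ATP6V1F and ATP6V1G1 (V1) fell. The calls of ATP6AP1 and ATP6V1F ended without MITFKO replicate 3 (adjusted p = 0.0766) and MITFKO replicate 2 (0.0737), respectively. ATP6V1E2 overlaps RHOQ, which had 390 to 7303 counts per library, so its value is uncertain.

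In A375 TFE3KO, where 21.3% of all genes rose and 22.0% fell, 2 of the 13 rose, ATP6AP1 (0.22 ± 0.05, adjusted p = 0.000173) and ATP6AP2 (0.21 ± 0.05, adjusted p = 0.000727), both accessory subunits. ATP6V1G1 (-0.27 ± 0.07, adjusted p = 0.000642), ATP6V0B (-0.26 ± 0.04, adjusted p = 3.06e-07) and ATP6V0E1 (-0.18 ± 0.06, adjusted p = 0.0101) fell, the last not without TFE3KO replicate 2 (0.0658) or replicate 3 (0.0523). Clone 13 against clone 3 gave 2 that rose and 4 that fell, where 14.3% and 13.4% of all genes did, with ATP6AP2 at 0.37 ± 0.07 (adjusted p = 0.000384) and ATP6V0C at -0.27 ± 0.05 (adjusted p = 0.000521) the largest. The 6 calls between clones dropped to 4 without clone 13 replicate 1, to 2 without clone 3 replicate 1 and to 3 without clone 3 replicate 2 or without clone 3 replicate 3. Against MITFKO, clone 3 had 8 higher and none lower, beside 18.2% and 17.6% of all genes, and 5 higher without MITFKO replicate 2 or without MITFKO replicate 3. Clone 13 had 6 higher and 3 lower, beside 20.5% and 20.2%, and the 3 lower became 0 without MITFKO replicate 1 and 1 without MITFKO replicate 2 or without clone 13 replicate 2. The difference between the lines in the TFE3 effect was past the threshold for 8, all higher in SKMEL28, beside 16.5% of all genes higher and 18.3% lower. The largest were ATP6V0B (0.68 ± 0.08) and ATP6V1F (0.45 ± 0.09), given without p as for the members. Between the wild types 3 were higher in A375 and 9 lower, beside 34.1% and 33.6% of all genes, with ATP6V1E1 at -1.81 ± 0.07 and ATP6V0E1 at -1.75 ± 0.07. Promoter windows of 11 of these genes (17 starts) held CACGTG in 4 (those of ATP6V0B and ATP6V1G1 and both of ATP6V0E2, which overlap and share the site), TCACGTGA in 1 (that of ATP6V1G1), CATGTG in 4 and TGACTCA in 0.

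**Figure D4:**
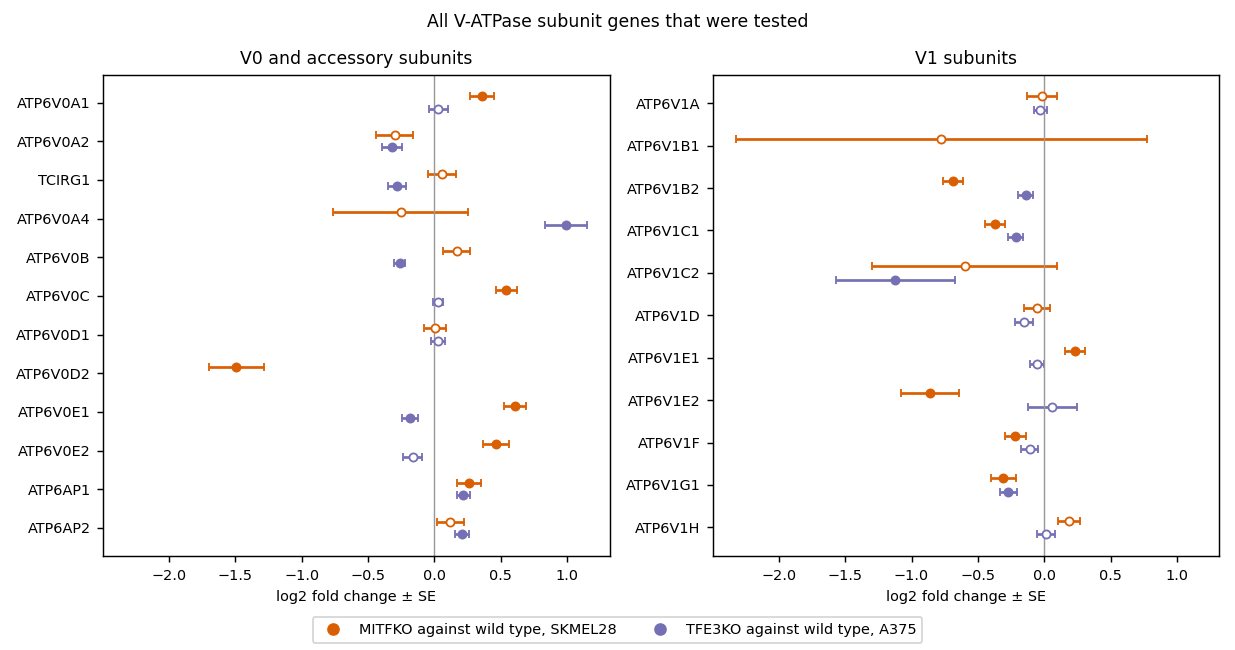
Log2 fold change ± SE (horizontal axes) of the V-ATPase subunit genes that were tested, for MITFKO against wild type in SKMEL28 (orange) and TFE3KO against wild type in A375 (purple), split into V0 with accessory and V1 subunits; filled points are called at an adjusted p under 0.05. ATP6V0C and ATP6V0E1 lie to the right of 0 in MITFKO while ATP6V1B2, ATP6V1C1, ATP6V1E2, ATP6V1F and ATP6V1G1 lie to the left. Each panel also has genes on the other side in MITFKO. ATP6V0D2, ATP6V0A2 and ATP6V0A4 lie to the left, and ATP6V1E1 and ATP6V1H to the right.

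Genes that assemble or regulate the pump were taken as a list of 11, of which 10 were tested: 3 rose and 3 fell in MITFKO, beside 25.2% and 23.4% of all genes, and 3 rose and 3 fell in A375 TFE3KO, beside 21.3% and 22.0%. Every alternative run for MITFKO called 2 that rose, because WDR7 (adjusted p = 0.0460) was lost in each. In A375 the 6 calls were 4 without TFE3KO replicate 1 or without wild-type replicate 3. Among them, picked after their values were seen, CCDC115, an assembly factor, fell in MITFKO by 1.02 ± 0.11 on the log2 scale (adjusted p = 4.99e-08), and DMXL2, a rabconnectin that promotes assembly, fell in MITFKO by 0.39 ± 0.10 (adjusted p = 0.0025) and rose in A375 TFE3KO by 0.33 ± 0.08 (adjusted p = 0.000772). Of 6 lysosomal ion channels and exchangers that work beside the pump, 3 rose and 1 fell in MITFKO. In A375 TFE3KO 1 rose and 1 fell, beside the same shares of all genes as above. The ratio of the MITFKO mean to wild type was largest for TPCN2 (2.3), followed by MCOLN1 (1.86). The genes that follow were named without a rule. MCOLN1, the TRPML1 calcium channel, rose in MITFKO by 0.90 ± 0.10 (adjusted p = 2.2e-07). OSTM1, the partner of the chloride exchanger CLCN7, fell there by 0.85 ± 0.09 (adjusted p = 4.75e-08). TPCN1, an endolysosomal cation channel, fell in A375 TFE3KO by 0.94 ± 0.09 (adjusted p = 4.95e-12).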

How the data were processed

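RNA-seq was measured in 16 libraries of cultured SKMEL28 and A375 cells. The authors deposited raw read counts per gene, 1 file per library; per the submitters' processing notes STAR, featureCounts, DESeq2 and hg19 were used, without versions. Strand setting, annotation release and multi-mapped reads: not given in the sources used here. In the file headers, the number of the alignment input differs for the lone wild type of SKMEL28 and is missing for replicate 2 of the A375 wild type. Groups were taken from the sample titles. The members and gene lists were chosen with earlier results of these data known.

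The test was that of edgeR 4.0.16 under R 4.3.3 on the counts (filterByExpr by group, TMM scaling, robust quasi-likelihood F-test, Benjamini-Hochberg adjustment over all genes, called under 0.05). The models held 10 SKMEL28 libraries (14605 genes), 6 A375 libraries (14012) and all 16 (16248). Alternatives were median-of-ratios scaling, no filter on low counts, DESeq2 1.42.0, a replicate block, and each replicate left out. The scripts were tested on simulated data. Isoform shares used the longest GENCODE 29 transcript (GRCh38), with median transcript length, no length correction and, added after seeing the data, coding length as alternatives. Genes named by rule beside the members were MITF, TFE3, called subunit genes (at least the 2 largest changes at a mean CPM of 5 or more), and the 5 genes most correlated with ATP6V0A4 in log2 CPM (prior count 2). Cell-type markers came from listed sets and overlapping genes from the annotation. Assembly, regulation and ion genes were named without a rule. The intervals and spreads cover counting and culture error only.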

Additional observations from a re-analysis of the deposited data

Results flagged for a closer look

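The TFE3 effect differed between SKMEL28 (mean of both DKO clones against MITFKO) and A375 for 3 isoform genes by a test of the difference itself in edgeR's model of all 16 libraries. The SKMEL28 side of that test is the comparisons by which ATP6V0A4 chose the set. The test is not independent of that choice, so its p-values are left out and its calls only describe the genes. ATP6V1C2 differed by 1.71 on the log2 scale, from 7 to 41 counts per library, and the call was lost in 8 of the fits that left out a library. TCIRG1 differed by 0.30 on the log2 scale: it fell in A375 TFE3KO and its clones overlapped with MITFKO in SKMEL28. ATP6V0D1 differed by 0.23 on the log2 scale, with both clones above MITFKO and the A375 groups overlapping.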

How the results depend on the processing

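No called result of the 10 isoform genes changed direction under any alternative, while 10 of their 68 results, none called in either fit, changed sign in at least 1 alternative. Examples are ATP6V0A1 in A375 TFE3KO (-0.05 without wild-type replicate 3) and ATP6V0D1 in MITFKO (-0.03 without MITFKO replicate 2). With median-of-ratios scaling 66 of 68 gene results kept their side of the threshold and 2 passed it; without the filter on low counts 65 kept it, 1 passed and 2 were lost; with DESeq2 60 kept it, 2 passed, 2 were lost and the rest had no adjusted p. Over all fits that left out 1 replicate 406 kept it, 5 passed and 25 were lost. Those fits called 4 members in MITFKO against wild type in every case, 4 to 6 in A375 TFE3KO and 7 between the wild types, ATP6V0A4 included. For the comparisons that used the libraries of both clones or of 1 clone, only the 9 other members are counted. Against MITFKO, clone 3 had 1 to 2 higher and 0 lower past the threshold. Clone 13 had 1 to 2 higher and 2 to 3 lower. Between clones 0 to 1 were higher and 3 to 4 lower. In the difference between lines 0 to 3 were higher and 0 lower. The 7 between the wild types count ATP6V0D2, which passed the filter through its SKMEL28 counts. Leaving out the lone SKMEL28 wild type was not possible. Correlations of same-numbered deviations ran from -0.0292 to 0.084. Between clones 3 and 13 the same number was the best match for replicates 1 (0.0334 against 0.0162) and 2 (0.084 against -0.0332). It was also the best match for replicate 1 between MITFKO and clone 13 (0.0118 against 0.00503), and in no other case. A fit with the replicate number as a block had, of the 9 members other than ATP6V0A4, 2 higher in clone 3 against MITFKO. Clone 13 against MITFKO had 2 higher and 3 lower. Of the same 9, 4 were lower between clones and 4 higher in the difference between lines. The block fit called 4 members in A375 TFE3KO, ATP6V0A4 included. The A375 calls of ATP6V1B2 (adjusted p = 0.0610) and ATP6V1C2 (0.0640) ended in it. Sampling depth limits ATP6V1B1, ATP6V1C2 and, in A375, ATP6V0D2, whose counts are few. Isoform shares depend on the length used: the a4 share in A375 TFE3KO was 9.88% with the longest transcript, 3.78% with the median transcript, 7.93% without length correction and 7.93% with coding length.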
